A study of Mus musculus with 12 samples.

Results

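The cell cycle genes described here are 42 mouse genes that dividing cells transcribe, divided by function into a replication set of 19 genes and a mitosis set of 23 genes. They are a list of gene names; the list was drawn up with earlier results of these data known. Every probe that the array annotation assigns to a member was taken, 88 probes in all, and a probe with a detection p under 0.05 on 3 or more of the 12 arrays was kept. The detection p is the array software's estimate of how often a probe without a target would be as bright. This rule kept 65 probes and left 34 of the 42 members to be tested, namely all 19 of the replication set and 15 of the mitosis set, among 11933 genes tested in all. No probe was kept for Ccna2, Ccnb2, Bub1, Ube2c, Cenpe and Kif20a, and Mki67 and Ccnb1 were not analysed here. The brightest kept probe stands for a member that has several, and each of the 34 was detected on at least 9 of the 12 arrays, so that passing the filter did not rest on one group.

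The samples were colon RNA from 12 male mice aged 7 to 8 weeks, 3 biological replicates in each of 4 treatment groups, hybridised to Illumina bead arrays. Control mice carry no treatment in the labels, and the DSS group received dextran sulfate sodium, a polymer given to mice to provoke colitis. Both other groups also received DSS: one had DAPP ahead of it (DAPP before DSS) and one had DAPP alongside it (DAPP during DSS). The labels do not spell out DAPP; the series title is about polyphenols from apple peel, and the columns are numbered 200 for the first and 400 for the second DAPP group without a unit, so timing and this number cannot be told apart. The sources used here give no strain, vehicle or course of DSS and do not say whether mice shared a cage, so the p-values reflect the spread among these samples alone. The design asks what DSS does to the colon, and whether DAPP before or during DSS changes it.

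In a dividing cell, D-type cyclins and then cyclin E with CDK2 carry the cell past the restriction point, after which E2F factors switch on the genes for DNA synthesis. Cyclin-dependent kinase 1 then drives mitosis. A second wave of genes for it, repressed earlier by the DREAM complex, is switched on in G2 through MuvB, B-MYB and FOXM1. In the healthy colon, division is confined to the lower crypt, where stem cells and transit-amplifying cells replace the surface epithelium, and in DSS colitis crypts are lost and later rebuilt by proliferation. A bulk sample averages over all cells of the tissue, so fewer dividing cells and less of these RNAs per cell cannot be told apart.

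Between 17650 and 21444 probes were detected per array, and arrays of the DAPP groups were brighter, with mean raw signals of 601 to 728 against 433 to 507 on the rest. Replicate 1 of DAPP before DSS stood apart, correlating over genes at 0.828 to 0.914 with the other 11 arrays, while other pairs lay at 0.916 to 0.984. Marker lists matched the labelled tissue in part: the mean of 10 epithelial genes was 11.54 to 11.90 on 11 arrays and 10.69 on that replicate, and the mean of 6 colon genes was 10.07 to 11.92. Genes of the exocrine pancreas (13 tested) were also bright on some arrays, with list means of 6.39 to 8.09 in control and 6.13 to 14.17 elsewhere. In DSS against control 8 of 8 neutrophil genes rose, with a median log2 difference of 3.77. Their list mean in control, 5.35 to 5.53, lay near the lowest detected signal of the control arrays (5.43 to 5.60). A gene at background in control was kept only through treated arrays and had to be higher there. The rise is therefore not an independent check of the DSS label.

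No tested cell cycle gene passed the test between any pair of groups. In DSS against control, 0 of 34 members passed a limma adjusted p of 0.05, where 6.71% of all genes tested did (801 genes). At an unadjusted limma p under 0.05 the count was also 0 of 34, against 19.7% of all genes. Comparing DSS with DAPP before DSS, and with DAPP during DSS, 0 of 34 members passed each time, as did 0% of all genes. What the members did show was a common movement from array to array inside the treated groups, so that some mice of a treated group had high levels of nearly all of them and others low levels.

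The replication set mean, on the log2 scale of normalised intensity, was 8.74, 8.42 and 8.39 on the 3 control arrays. In the DSS group it was 9.11, 7.86 and 9.01, while DAPP before DSS gave 8.17, 7.54 and 9.12, and DAPP during DSS 7.97, 8.96 and 9.06. The mitosis set mean was 9.02, 8.95 and 8.65 in control, 9.15, 8.28 and 8.70 in DSS, 8.33, 7.74 and 9.07 with DAPP before DSS, and 7.86, 8.91 and 9.20 with DAPP during DSS. DSS replicate 2, DAPP before DSS replicates 1 and 2 and DAPP during DSS replicate 1 were therefore low in both sets, below every control array. The other 5 treated arrays lay above every control array in the replication set and within or above the control range in the mitosis set. Each treated group overlapped the control group in both sets.

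**Figure D1:**
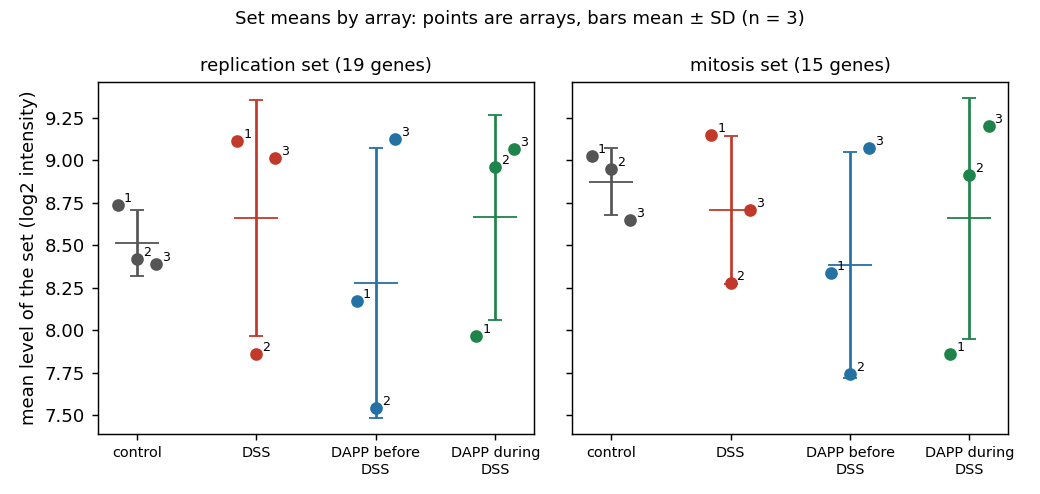
Mean log2 intensity of the 19 replication genes (left) and the 15 mitosis genes (right) on each array, by group; points are arrays with their replicate number, and bars give the mean and SD of 3 arrays. Each treated group holds at least 1 array below all control arrays and at least 1 inside or above the control range, so every treated group overlaps control.

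The members moved on these arrays nearly one by one and not only in the mean. Within the DSS group, replicate 2 was the lowest array for 29 of 34 members (85.3%), where it was the lowest for 36.6% of all genes tested. In DAPP during DSS, replicate 1 was the lowest array for 34 of 34 members, against 36.5% of all genes. In DAPP before DSS, replicate 2 was lowest for 26 members and replicate 1 for 8, and replicate 3 was highest for 29 (85.3%, against 29.2% of all genes). Control arrays had an order too, replicate 3 being lowest for 24 of 34 members (70.6%, against 31.9% of all genes), but over a much smaller distance.

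**Figure D2:**
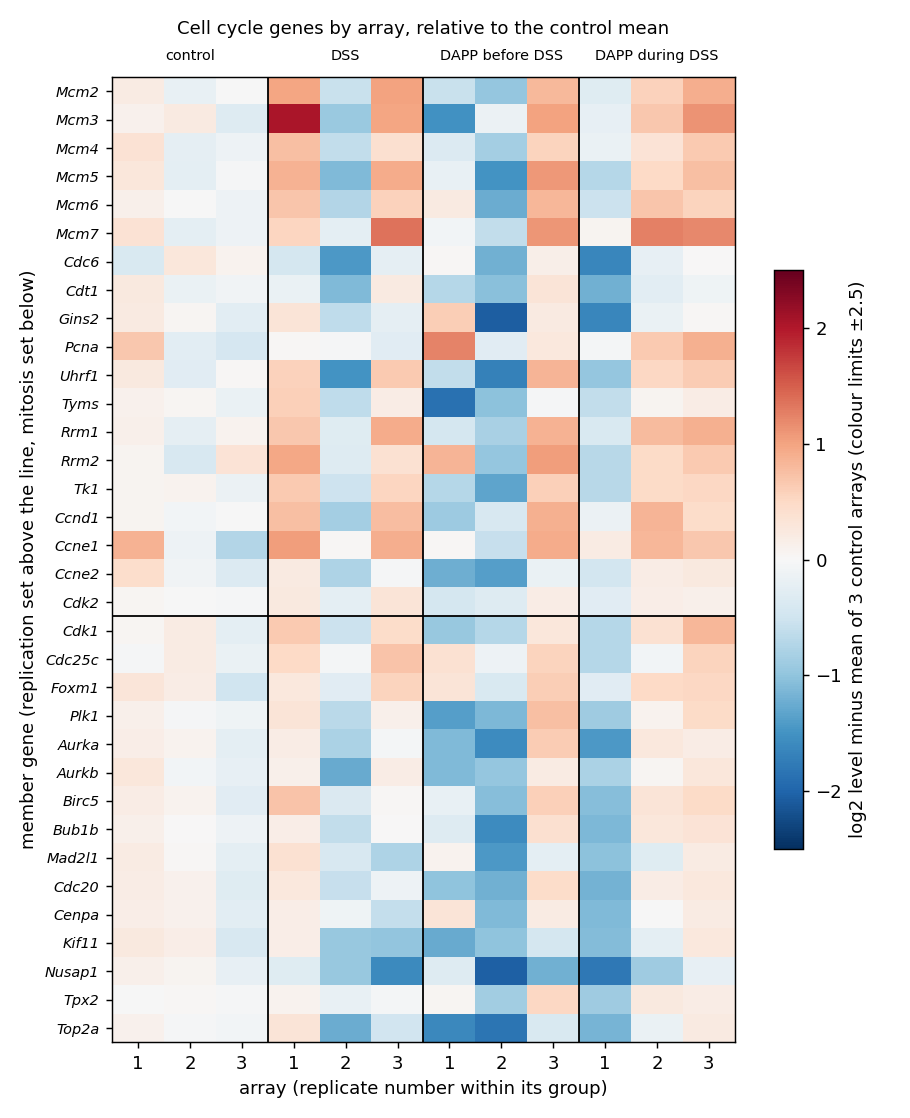
Log2 level of each tested member on each array minus its mean over the 3 control arrays; rows are the 34 genes (replication set above the line, mitosis set below), columns the 12 arrays by group and replicate, red above and blue below control. The blue columns are DSS replicate 2, DAPP before DSS replicates 1 and 2 and DAPP during DSS replicate 1, and on the last of these 34 of 34 members were at the lowest level of their group.

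The distance between the highest and the lowest array of a group measures this spread. Its median over members was 0.44 in control, 1.17 in DSS, 1.65 with DAPP before DSS and 1.26 with DAPP during DSS, on the log2 scale. Over all genes tested the same medians were 0.38, 0.57, 0.87 and 0.38. A distance above 1, which is 2-fold, was found for 2 of 34 members in control (5.88%, against 8.39% of all genes), 24 in DSS (70.6%, against 18.2%), 30 in DAPP before DSS (88.2%, against 41.5%) and 26 in DAPP during DSS (76.5%, against 6.14%). The SD was smallest in control for 30 of 34 members (88.2%), where this held for 38.8% of all genes. These are descriptions of 3 arrays a group, and the members share the arrays, so they are not independent counts.

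**Figure D3:**
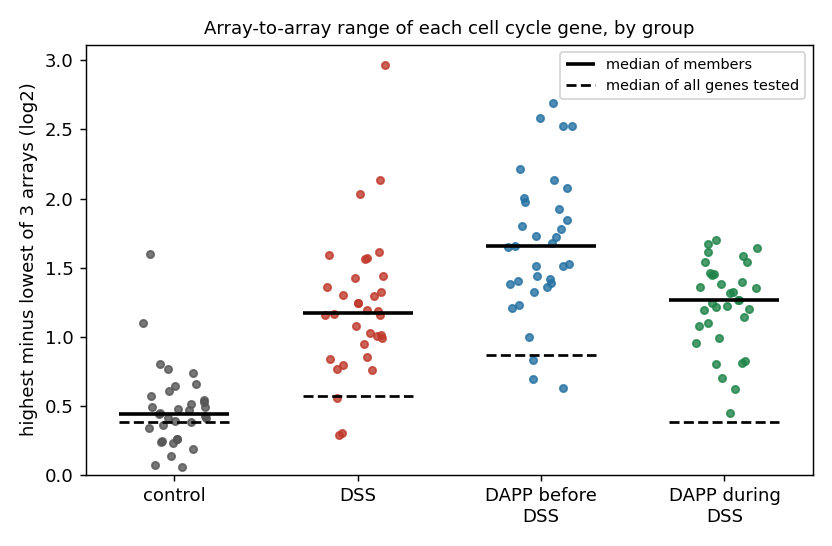
Highest minus lowest log2 level over the 3 arrays of a group, 1 point per tested member; the solid bar is the median of the 34 members and the dashed bar that of all 11933 genes. Member medians are 0.44 in control and 1.17 to 1.65 in the treated groups, and in DAPP during DSS the member median of 1.26 stands above the all-gene median of 0.38.

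The brightness of whole arrays was set beside the member means. DSS replicate 2 had a mean raw signal of 483 between those of replicates 1 and 3 (487 and 433) and the most probes detected of its group (20449). DAPP during DSS replicate 1 had a mean raw signal of 701, beside 708 and 702 on the other arrays of its group. In DAPP before DSS the mean raw signals were 601, 613 and 728, highest on replicate 3, where the members were highest too. The mean over all genes tested was 8.18 to 8.24 on the 12 arrays after normalisation. Quantile normalisation gives every array the same distribution, so these means had to be nearly equal and say nothing on the member pattern.

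Genes of the same processes outside the 42 had the same lowest array in each treated group. Another 34 replication genes had a mean of 7.97, 7.86 and 7.83 in control, 8.26, 7.50 and 8.21 in DSS, 8.00, 7.21 and 8.23 with DAPP before DSS, and 7.48, 8.13 and 8.20 with DAPP during DSS. Another 38 mitosis genes had a mean of 7.95, 7.80 and 7.70 in control, 7.97, 7.23 and 7.69 in DSS, 7.19, 6.84 and 7.83 with DAPP before DSS, and 7.10, 7.74 and 8.00 with DAPP during DSS. Those lowest arrays were DSS replicate 2, DAPP before DSS replicate 2 and DAPP during DSS replicate 1. DAPP before DSS replicate 1, which was below every control array in both member sets, was at 8.00 in the other replication genes, above every control array. The mean of 8 CDK inhibitor genes, the brakes of the cycle, was 8.21 to 8.53 on the 12 arrays, but this mean hides genes that differ both ways: in DSS against control the differences ran from -1.04 (Cdkn2b) to 0.42 (Cdkn1c), 4 positive and 4 negative.

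Lists of cell types did not share this order throughout. The crypt stem and Wnt list (7 genes) was 8.48, 8.49 and 8.78 in control, 8.05, 7.85 and 8.43 in DSS, 7.50, 7.92 and 8.16 with DAPP before DSS, and 7.84, 8.19 and 8.30 with DAPP during DSS, so that its lowest array was the same as that of the members in DSS and in DAPP during DSS. The pancreas list was 6.46, 13.15 and 13.89 in DSS and 13.75, 12.19 and 13.02 with DAPP before DSS. With DAPP during DSS it was 8.76, 6.13 and 14.17. The 4 arrays low in cell cycle genes were at 8.76 to 13.75 in it, all above the control arrays (6.39 to 8.09). The other treated arrays were at 6.13 to 14.17, some above all 4 of the low arrays and some below them. High pancreas levels were thus found on arrays with low and with high cell cycle levels. The B and plasma cell list (2 genes tested) was at 11.30 on DAPP before DSS replicate 1, against 7.48 to 9.14 on the other arrays. T cell genes (4 tested) were at 5.37 to 6.30 in control and 6.79 to 8.94 elsewhere. With the mean of the pancreas list as a covariate, 0 members passed in any comparison, as in the fit without it. With the epithelium list mean 1 did, Nusap1 in DAPP before DSS against control (difference -1.65, limma adjusted p = 0.0295). The part of other cell types in the array pattern was not tested.

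**Figure D4:**
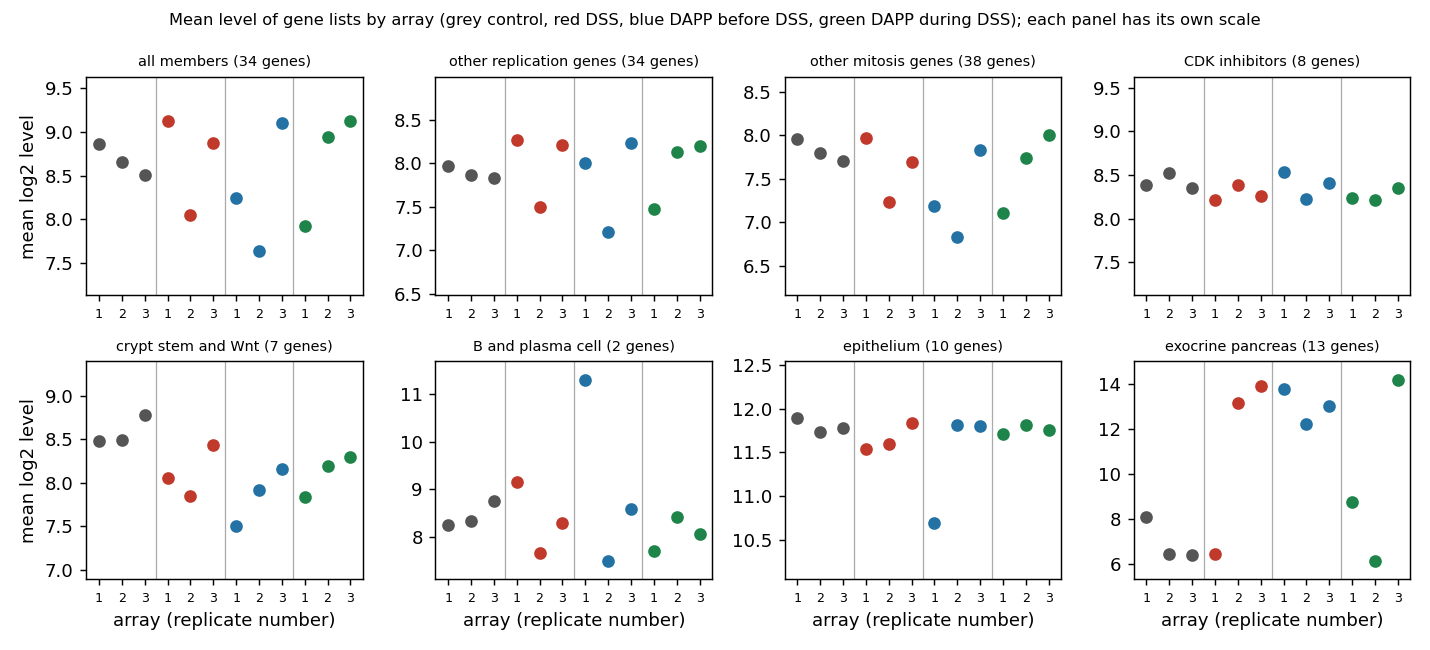
Mean log2 level of 8 gene lists on each of the 12 arrays (grey control, red DSS, blue DAPP before DSS, green DAPP during DSS), each panel on its own axis. The panels of other replication and other mitosis genes have the same lowest array in each treated group as the 34 members, the mean of the 8 CDK inhibitors is 8.21 to 8.53, and the pancreas list spans 6.13 to 14.17.

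The replication and mitosis sets also differ in the letters of their promoters. Windows of 300 bases, from 250 before the transcript start to the first 50 of the transcript, were taken from RefSeq (build GRCm38.p6) and held 30 of the 42 members. Searched on both strands were the cell cycle homology region, or CHR (TTTGAA or TTCGAA, bound by MuvB complexes), the CCAAT box (CCAAT, bound by NF-Y), and an E2F site (TTGGCGC or TTCCCGC). An E2F site and a CCAAT box can share letters. A CHR stood in 11 of 15 windows of the mitosis set (73.3%), in 2 of 17 of the replication set (11.8%) and in 19.2% of 32851 windows of all genes. An E2F site stood in 10 of 17 replication windows (58.8%), 1 of 15 mitosis windows (6.67%) and 6.81% of all, and a CCAAT box in 70.6%, 80% and 37.4%. The sequences below are from 2 members of each set, with every match in capitals. They show the CHR contrast but only part of the E2F contrast, since Cdk1 is the 1 mitosis window with an E2F site. They are Cdk1 (chr10:69352863-69353162, minus strand, 2 CHR, 3 CCAAT boxes and 1 E2F site), Top2a (chr11:99024140-99024439, minus strand, 4 CHR, 6 CCAAT boxes and 0 E2F sites), Mcm5 (chr8:75109259-75109558, plus strand, 0 CHR, 3 CCAAT boxes and 2 E2F sites) and Mcm6 (chr1:128359656-128359955, minus strand, 0 CHR, 2 CCAAT boxes and 2 E2F sites), each read 5′ to 3′ on the strand of the gene. A match is a description of the letters and not evidence of binding.
Cdk1: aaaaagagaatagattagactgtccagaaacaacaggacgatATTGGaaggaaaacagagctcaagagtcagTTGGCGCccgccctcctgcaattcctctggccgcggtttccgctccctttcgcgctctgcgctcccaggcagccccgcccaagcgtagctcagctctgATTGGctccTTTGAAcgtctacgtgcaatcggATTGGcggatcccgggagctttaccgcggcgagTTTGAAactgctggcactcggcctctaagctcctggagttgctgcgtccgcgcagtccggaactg
Top2a: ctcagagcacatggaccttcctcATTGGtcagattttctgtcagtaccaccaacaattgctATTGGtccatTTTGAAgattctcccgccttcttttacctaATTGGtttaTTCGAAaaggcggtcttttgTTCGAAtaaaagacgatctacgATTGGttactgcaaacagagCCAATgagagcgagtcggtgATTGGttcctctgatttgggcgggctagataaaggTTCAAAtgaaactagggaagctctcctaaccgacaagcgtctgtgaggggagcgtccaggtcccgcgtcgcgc
Mcm5: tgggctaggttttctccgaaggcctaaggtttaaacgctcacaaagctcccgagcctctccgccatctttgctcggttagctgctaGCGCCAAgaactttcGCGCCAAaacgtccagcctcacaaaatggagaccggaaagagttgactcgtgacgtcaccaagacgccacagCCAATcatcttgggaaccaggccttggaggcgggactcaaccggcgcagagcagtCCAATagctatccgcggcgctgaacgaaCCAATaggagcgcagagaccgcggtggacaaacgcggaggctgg
Mcm6: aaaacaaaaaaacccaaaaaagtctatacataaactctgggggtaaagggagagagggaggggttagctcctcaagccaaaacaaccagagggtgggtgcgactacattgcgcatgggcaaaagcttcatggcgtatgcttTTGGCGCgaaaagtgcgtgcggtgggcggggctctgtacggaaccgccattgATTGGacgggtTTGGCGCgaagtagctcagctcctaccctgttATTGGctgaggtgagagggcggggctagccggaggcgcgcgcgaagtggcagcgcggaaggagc

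Cdk1 and Mcm5, whose windows both hold CCAAT boxes and an E2F site while a CHR stands only in that of Cdk1, were low on some of the same arrays. Cdk1, the kinase that drives mitosis, was at 9.43, 9.58 and 9.14 in control, 10.04, 8.85 and 9.84 in DSS, 8.44, 8.67 and 9.66 with DAPP before DSS, and 8.67, 9.76 and 10.21 with DAPP during DSS. Mcm5, a subunit of the replicative helicase, was at 10.11, 9.58 and 9.79 in control, 10.69, 8.72 and 10.76 in DSS, 9.65, 8.33 and 10.91 with DAPP before DSS, and 9.12, 10.33 and 10.58 with DAPP during DSS. For both genes DSS replicate 2 and DAPP during DSS replicate 1 lay below every control array and DSS replicate 1 above every control array.

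Origin licensing and fork genes (11 tested) were 8.37 to 8.72 as a mean on the control arrays and 7.44 to 9.16 on the others. In DSS against control they had a median difference of 0.18, from -0.70 to 0.70, with 6 positive and 5 negative and 0 past the threshold. Mcm2, a helicase subunit, was at 7.68, 7.29 and 7.46 in control, 8.46, 6.93 and 8.49 in DSS, 6.92, 6.52 and 8.30 with DAPP before DSS, and 7.18, 8.05 and 8.38 with DAPP during DSS. In each treated group 1 or 2 arrays lay below control and the rest above it. Its difference in DSS was 0.48 ± 0.51 (SE, limma adjusted p = 0.692).

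Mcm3, another helicase subunit, had the largest positive difference in the replication set, 0.70 ± 0.72 (SE, limma adjusted p = 0.680). It was at 6.19, 6.30 and 5.76 in control, 8.11, 5.15 and 7.07 in DSS, 4.57, 5.94 and 7.10 with DAPP before DSS, and 5.87, 6.76 and 7.19 with DAPP during DSS. Its 2 lowest values, on DSS replicate 2 and DAPP before DSS replicate 1, were not above background. The 6 helicase genes Mcm2 to Mcm7 all had a positive difference in DSS, 0.18 to 0.70, and none passed. The CDC6 protein loads this helicase at origins, and Cdc6 had the most negative difference in the set, -0.70 ± 0.48 (SE, limma adjusted p = 0.493). Its levels were 7.09, 7.75 and 7.56 in control, 7.02, 6.04 and 7.23 in DSS, 7.50, 6.26 and 7.62 with DAPP before DSS, and 5.84, 7.26 and 7.48 with DAPP during DSS. One DSS array lay inside the control range and 2 below it, so these groups overlapped.

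Pcna, which encodes the sliding clamp of DNA polymerases, differed from most members in the DSS group and on DAPP before DSS replicate 1. It was at 7.61, 6.68 and 6.52 in control, 6.96, 6.91 and 6.66 in DSS, 8.17, 6.64 and 7.20 with DAPP before DSS, and 6.88, 7.58 and 7.83 with DAPP during DSS. DSS replicate 2 was not its lowest DSS array, and its highest level was on DAPP before DSS replicate 1, where most members were low. Its difference in DSS was -0.09 ± 0.40 (SE, 95% interval -0.97 to 0.78). Pcna was 1 of 2 members with a positive difference in DAPP before DSS against DSS (0.50), the other being Cdc6 (0.36). Gins2, a subunit of the helicase's GINS partner, was likewise high on DAPP before DSS replicate 1 (9.12, against 8.24 to 8.71 in control) and at 6.43 on replicate 2. Uhrf1, which recruits the maintenance DNA methyltransferase to newly copied DNA, was at 9.82 ± 0.26 (SD, n = 3) in control, 9.73 ± 1.21 in DSS, 9.34 ± 1.27 in DAPP before DSS and 9.89 ± 0.90 in DAPP during DSS.

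Nucleotide synthesis genes had positive differences for 4 of 4 members in DSS against control, 0.05 to 0.43, and none passed. Tyms, thymidylate synthase, was at 10.17, 10.12 and 9.91 in control, 10.66, 9.42 and 10.26 in DSS, 8.20, 9.03 and 10.05 with DAPP before DSS, and 9.45, 10.13 and 10.25 with DAPP during DSS. Replicates 1 and 2 of DAPP before DSS were its lowest arrays of all 12, and replicate 3 lay inside the control range. Rrm1 and Rrm2, subunits of ribonucleotide reductase, and Tk1, the cytosolic thymidine kinase, had DSS differences of 0.43 ± 0.47, 0.35 ± 0.53 and 0.22 ± 0.48 (SE).

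The G1 and S cyclins and their kinase were Ccnd1, Ccne1, Ccne2 and Cdk2. Ccnd1, the D-type cyclin induced by mitogens and Wnt signals, was at 11.53, 11.39 and 11.44 in control, 12.21, 10.61 and 12.22 in DSS, 10.55, 11.05 and 12.35 with DAPP before DSS, and 11.32, 12.31 and 11.92 with DAPP during DSS. The 3 control arrays lay within 0.14 of each other, and every array of the other groups lay outside their range. Its difference in DSS was 0.23 ± 0.49 (SE, limma adjusted p = 0.870). Cdk2, the kinase partner of cyclin E, varied least in this role, at 10.24 ± 0.04 (SD, n = 3) in control and 10.35 ± 0.30, 10.05 ± 0.33 and 10.25 ± 0.25 in the DSS group and with DAPP before and during DSS. Its interval in DSS against control was -0.40 to 0.62. Ccne1 and Ccne2, the E-type cyclins, had DSS differences of 0.66 ± 0.46 and -0.19 ± 0.37, and Ccne2 was not above background on DSS replicate 2 and on DAPP before DSS replicates 1 and 2.

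In the mitosis set, the G2 kinase and its activators (Cdk1, the phosphatase gene Cdc25c and the transcription factor gene Foxm1) had DSS differences of 0.18 to 0.39. The mitotic kinase genes Plk1, Aurka and Aurkb and the passenger protein gene Birc5 (survivin) had differences of -0.31 to 0.13. The checkpoint genes Bub1b and Mad2l1 and the APC/C activator gene Cdc20 lay at -0.26 to -0.15. None passed. Aurka shows the array pattern of these genes: 8.54, 8.46 and 8.13 in control, 8.57, 7.58 and 8.32 in DSS, 7.28, 6.80 and 9.01 with DAPP before DSS, and 6.93, 8.63 and 8.57 with DAPP during DSS.

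Centromere, spindle and chromosome genes had a negative difference for 5 of 5 members in each treated group against control, as did the 3 checkpoint genes. These 3 comparisons share the control arrays. The median was -0.46 in DSS, -0.90 with DAPP before DSS and -0.35 with DAPP during DSS, against -0.04, -0.05 and -0.03 over all genes. In DSS against control this direction held for the probe standing for each gene but not for every kept probe. Other kept probes of Cdc20 were at 0.18, 0.02 and -0.12, and that of Cenpa was at 0.11. The other kept probes of Top2a, Bub1b and Mad2l1 were negative too. Nusap1, a microtubule-bundling spindle protein gene, was at 10.36, 10.30 and 10.02 in control, 9.93, 9.27 and 8.63 in DSS, 9.90, 8.18 and 9.02 with DAPP before DSS, and 8.44, 9.33 and 10.03 with DAPP during DSS. It was the 1 member whose control and DSS arrays did not overlap, a property of 30.5% of all genes. Its difference of -0.95 ± 0.48 (SE) did not pass (limma adjusted p = 0.305).

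Kif11, the kinesin that pushes spindle poles apart, was at 7.05, 6.98 and 6.41 in control, 6.99, 5.87 and 5.83 in DSS, 5.54, 5.82 and 6.37 with DAPP before DSS, and 5.73, 6.56 and 7.08 with DAPP during DSS. Its DSS difference was -0.58 ± 0.40 (SE, limma adjusted p = 0.486), and the groups overlapped. Top2a, the topoisomerase that untangles sister chromatids, was at 9.43, 9.28 and 9.24 in control, 9.65, 8.08 and 8.84 in DSS, 7.70, 7.48 and 8.92 with DAPP before DSS, and 8.15, 9.16 and 9.54 with DAPP during DSS. DSS replicate 1 lay above the control arrays and the other DSS arrays below them, for a difference of -0.46 ± 0.47 (SE, limma adjusted p = 0.676). Tpx2, which targets Aurora A to the spindle, stood at 7.05 ± 0.03 (SD, n = 3) in control and 7.00 ± 0.14 in DSS, the smallest spread of any member in each of those groups. Cenpa, the centromeric histone H3 gene, was at 11.81 ± 0.23 in control and 11.63 ± 0.38 in DSS.

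With this spread, small differences could not be bounded closely. The 95% interval of the DSS difference lay within 2-fold in either direction for 5 of 34 members (14.7%: Pcna, Tyms, Cdk2, Foxm1 and Tpx2), where it did for 53.5% of all genes. The median distance from the difference to the edge of its interval was 1.02 for members and 0.63 for all genes. For the probe that stands for each gene, a 2-fold change in DSS is thus outside the interval for these 5 members. It is inside the interval in at least 1 direction for the other 29. Other kept probes of the 5 differ: those of Tyms were at 0.31, -0.43 and -1.18, the last kept through the control arrays alone. Those of Cdk2 were at -0.06, 0.13 and 0.61, and that of Foxm1 was at -0.32. The medians also rested on single arrays. The replication median of 0.18 became 0.61 without DSS replicate 2, -0.08 without DSS replicate 1 and -0.0015 without DSS replicate 3, and the mitosis median of -0.15 became 0.07 without DSS replicate 2 and -0.35 without DSS replicate 1.

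**Figure D5:**
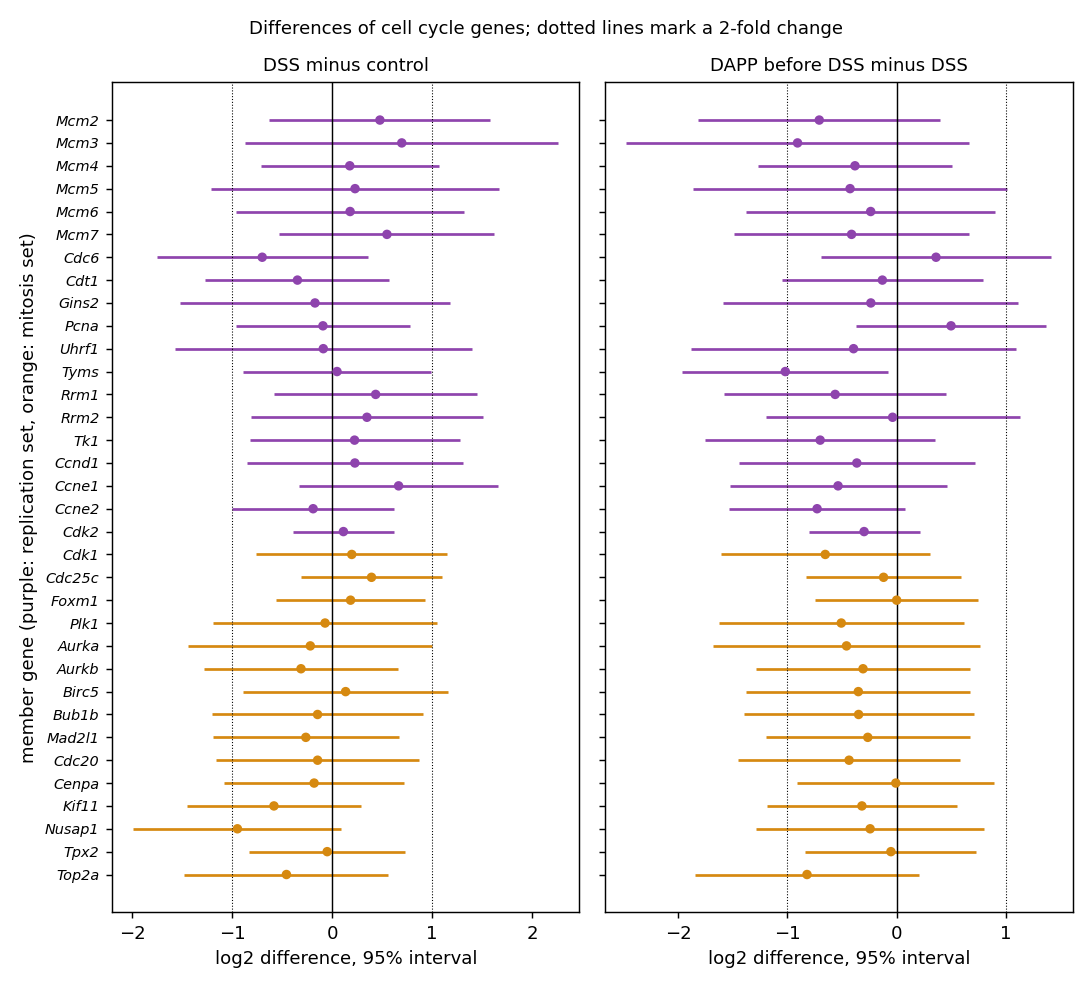
Log2 difference of each tested member with its 95% interval from limma's model, for DSS minus control (left) and DAPP before DSS minus DSS (right); purple marks the replication set, orange the mitosis set, and dotted lines a 2-fold change. Intervals on the left all cross 0, and on the right 1 of 34, that of Tyms, does not; 32 of 34 points on the right lie below 0.

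In DAPP before DSS against DSS, 32 of 34 members had a negative difference, with a median of -0.39 in the replication set and -0.32 in the mitosis set against 0.0028 over all genes. None passed, 0 members had groups that did not overlap (6.48% of all genes), and 1 had an unadjusted limma p under 0.05 (4.48% of all genes). This count was 10 without DAPP before DSS replicate 3 and 6 without DSS replicate 2. The share of all genes was not computed for these fits, so whether the counts are particular to the members was not tested. With all arrays the 1 member was Tyms, at -1.02 ± 0.43 (SE, limma adjusted p = 0.851), and without replicate 1 of DAPP before DSS it was -0.57. Other kept probes of Tyms were at -0.53, -0.35 and 0.25 with all arrays. The -0.35 probe was detected on 4 arrays and the 0.25 probe on 3. Since the members move together on an array, these are not 32 independent observations. Without replicate 2 of DAPP before DSS the medians were -0.06 and 0.07, without replicate 3 they were -0.90 and -0.73, and without replicate 1, the array that stood apart, -0.33 and -0.25. Without DSS replicates 1, 2 and 3 the replication median was -0.11, -0.86 and -0.19, and the mitosis median -0.06, -0.59 and -0.40. Intervals within 2-fold were found for 5 members, Cdk2, Cdc25c, Foxm1, Cenpa and Tpx2.

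In DAPP during DSS against DSS, 12 members had a positive and 22 a negative difference, with medians of -0.05 in the replication set and -0.03 in the mitosis set. At an unadjusted limma p under 0.05 the count was 0 of 34, against 2.66% of all genes, and 0 members had groups that did not overlap, against 11.3%. The largest differences were those of Pcna (0.59 ± 0.40, SE, limma adjusted p = 1.00) and Cdc25c (-0.46 ± 0.32). Without DAPP during DSS replicate 1 the medians were 0.32 and 0.37, without DSS replicate 2 they were -0.41 and -0.29, without DSS replicate 1 they were 0.23 and 0.14, and without DSS replicate 3 they were 0.21 and -0.03. Without DAPP during DSS replicate 2 they were -0.18 and -0.15, and without its replicate 3 -0.21 and -0.35. With the arrays scaled to equal medians in place of equal distributions, the medians turned to 0.35 and 0.37, under a scaling in which the median over all genes was 0.35. With array weights they were 0.07 and 0.16. Intervals within 2-fold were found for 6 members, Mcm4, Ccne2, Cdk2, Cdk1, Foxm1 and Tpx2.

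Between the DAPP groups, 27 members were higher and 7 lower in DAPP during DSS than in DAPP before DSS. The median was 0.48 in the replication set and 0.33 in the mitosis set, against 0.012 over all genes. Here too the members move together on an array, so these are not independent observations. By limma adjusted p 0 of 34 passed, as did 0% of all genes. By the unadjusted p 1 did (4.06% of all genes), Ccne2 at 0.92 ± 0.37 (SE, limma adjusted p = 0.842), a gene not above background on 2 of the 3 DAPP before DSS arrays. The unadjusted count was 10 without DAPP before DSS replicate 3 and 5 without DAPP during DSS replicate 1. For these fits too the share of all genes was not computed. Groups did not overlap for 0 members, against 7.9% of all genes.

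Against control, which all 3 treated groups share, the DAPP groups gave 0 of 34 members past the threshold, where 11.2% of all genes passed in DAPP before DSS and 7.68% of them in DAPP during DSS. For DAPP before DSS, 5 members had an unadjusted limma p under 0.05 (14.7%, against 26.4% of all genes), all lower: Top2a (-1.28 ± 0.47, SE), Nusap1 (-1.19 ± 0.48), Kif11 (-0.90 ± 0.40), Tyms (-0.97 ± 0.43) and Ccne2 (-0.92 ± 0.37), with limma adjusted p values of 0.104 to 0.177. Top2a, Nusap1 and Kif11 did not overlap between these groups, a property of 29.2% of all genes. This count rested on single arrays: without DAPP before DSS replicate 3, the array with the highest member levels of its group, 3 members passed, namely Top2a (-1.72, limma adjusted p = 0.0353), Tyms (-1.45, limma adjusted p = 0.0371) and Ccne2 (limma adjusted p = 0.0370). Both DAPP before DSS arrays then left were not above background for Ccne2, so that its level was at least 1.41-fold higher in control, measured against the lowest detected signal of each dim array where that exceeds the gene's own. Without replicate 1, 1 passed, Nusap1 (-1.63, limma adjusted p = 0.0406). Leaving out 1 array in turn, 776 to 1543 of all 11933 genes passed in this comparison, so passing was not particular to the members. For DAPP during DSS, 0 members had an unadjusted p under 0.05 (20.7% of all genes) and 0 did not overlap (40.8% of all genes); the smallest limma adjusted p was 0.287, of Nusap1 (-0.96 ± 0.48).

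The difference between the set means of an array removes what the sets share. Levels of different probes are not comparable, so only its change between arrays can be read. Replication minus mitosis was -0.36 ± 0.15 (SD, n = 3) in control, -0.05 ± 0.36 in DSS, -0.10 ± 0.14 in DAPP before DSS and 0.01 ± 0.13 in DAPP during DSS. By array it was -0.29, -0.53 and -0.26 in control and -0.04, -0.42 and 0.31 in DSS, which overlap. It was -0.17, -0.20 and 0.05 with DAPP before DSS, and 0.11, 0.04 and -0.13 with DAPP during DSS, all above the control arrays. How often other pairs of gene sets separate in this way was not computed. Single genes did not overlap control for 29.2% of all genes in DAPP before DSS and 40.8% in DAPP during DSS.

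Other genes that control the cycle were followed in lists chosen by function: CDK inhibitors (8 tested), other G1 cyclins and kinases (5), E2F, pocket protein and DREAM genes (14), other replication genes (34), other mitosis genes (38) and DNA damage checkpoint and p53 target genes (12). In DSS against control 0 of these 111 genes passed, where 6.71% of all genes did, and in both DAPP groups against DSS 0 passed, as did 0% of all genes. Cdkn1a, the p53 target encoding the inhibitor p21, was at 11.56, 11.04 and 11.07 in control, 10.22, 10.57 and 10.54 in DSS, 9.94, 10.47 and 10.54 with DAPP before DSS, and 10.51, 10.70 and 10.09 with DAPP during DSS. All 9 treated arrays lay below all 3 control arrays. Among all genes, 30.5% did not overlap control in DSS, 29.2% in DAPP before DSS and 40.8% in DAPP during DSS. The share with all 9 treated arrays on 1 side was not computed. The Cdkn1a difference was -0.78 ± 0.25 (SE, limma adjusted p = 0.0879) in DSS, -0.91 ± 0.25 (limma adjusted p = 0.0340) in DAPP before DSS and -0.79 ± 0.25 (limma adjusted p = 0.0761) in DAPP during DSS, and between treated groups the differences were -0.13, -0.01 and 0.11. Its call in DAPP before DSS was kept under 15 of 25 alternatives, and ended without any 1 of the control arrays (limma adjusted p of 0.0646 to 0.134) and without DAPP before DSS replicate 1 (-0.72, limma adjusted p = 0.0695). The Cdkn1a call also ended after adjusting for each array's pancreas list level (-0.84, limma adjusted p = 0.221). Myc, a transcription factor gene that drives growth and division, was at 5.26 to 5.28 in control and 4.60 to 5.81 elsewhere, and was not above background on any control array or on 2 of the 3 arrays of each other group, so no difference is given.

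In DAPP before DSS against control, 5 of the 111 passed (4.5%, against 11.2% of all genes), Cdkn1a and 4 more. Cdkn2b, which encodes the CDK4 and CDK6 inhibitor p15, fell by 1.21 (SE 0.30, limma adjusted p = 0.0220), from 11.51 to 11.69 on the control arrays to 9.99 to 10.82. Smc4, a condensin subunit gene, fell by 1.40 (SE 0.32, limma adjusted p = 0.0159) and was above background on 2 of the 3 DAPP before DSS arrays, and Atm, the kinase gene that responds to DNA breaks, fell by 0.94 (SE 0.23, limma adjusted p = 0.0217). Gadd45b, a stress-induced growth arrest gene, rose by 1.51 (SE 0.44, limma adjusted p = 0.0467), its level being 10.18 on replicate 1 and 8.21 and 8.03 on the other arrays, against 6.98 to 7.51 in control. Without replicate 1 of DAPP before DSS the rise of Gadd45b was 0.83. In DAPP during DSS against control 2 of the 111 passed (1.8%, against 7.68% of all genes): E2f3, an activating E2F gene, fell by 0.97 (SE 0.20, limma adjusted p = 0.0123), and Orc1, the largest subunit of the origin recognition complex, was higher (limma adjusted p = 0.0295). Orc1 was not above background on any control array and was detected on all 9 treated arrays, so it passed the detection filter only through treated groups and had to differ. Its level in DAPP during DSS was at least 1.77-fold that of control by the same bound, and its fitted log2 difference of 0.97 became 0.61 with a background offset of 50 and 0.33 with no background correction. These calls were kept under 21 of 25 alternatives for Cdkn2b, 20 of 24 for Smc4, 19 of 25 for Atm, 9 of 25 for Gadd45b, 20 of 25 for E2f3 and 15 of 24 for Orc1. With all kept probes of a gene averaged, Smc4 was -0.45 (limma adjusted p = 0.267) and E2f3 -0.59 (limma adjusted p = 0.116). Adjusting for each array's pancreas list level ended the calls of Atm (limma adjusted p = 0.142), Gadd45b (0.228), Smc4 (0.125) and Orc1 (0.0781). Their differences were then -0.94, 1.45, -1.34 and 0.87. The calls of Cdkn2b and E2f3 were kept. All 3 DAPP before DSS arrays were at 12.19 to 13.75 in that list, against 6.39 to 8.09 in control. Pancreas signal and group thus go together in this comparison, and the part of pancreas signal in these calls was not tested. Leaving out any 1 control array ended the calls of Cdkn2b (limma adjusted p of 0.0605 to 0.0785), Gadd45b (0.0912 to 0.153) and Orc1 (0.0757 to 0.107), as did leaving out control replicate 1 or 2 for Smc4 (0.0600 and 0.0566), control replicate 2 or 3 for Atm (0.0848 and 0.0946) and control replicate 1 for E2f3 (0.0555). Of the treated arrays, DAPP before DSS replicate 3 was needed for Atm (0.0598 without it), DAPP during DSS replicates 1 and 2 for E2f3 (0.0544 and 0.0603), its replicates 2 and 3 for Orc1 (0.141 and 0.122), and each DSS and DAPP during DSS array, through the shared spread, for Gadd45b (0.0593 to 0.0683).

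Several members are read by more than 1 kept probe, 18 of the 34. In DSS against control, 8 of these had kept probes with differences of opposite sign. A dim Tyms probe, at 5.91 ± 0.61 (SD, n = 3) in control, was detected on all 3 control arrays and on 0 other arrays, so it was kept through the control arrays alone and had to be higher there. The other 3 kept probes of Tyms had differences of 0.05, 0.31 and -0.43, so the probes of this gene disagree.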

How the data were processed

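RNA of 12 colon samples was read on Illumina bead arrays. The deposited table holds the authors' unnormalised probe intensity with a detection p-value beside it, summarised in GenomeStudio per the submitters' processing notes; a second deposited table of intensity values with equal array means was used as an alternative, its normalization not being stated per the file headers or labels. Of 45281 probes, 34885 carry 1 gene symbol, 18 several and 10378 none in the platform annotation used, and 34807 symbols were updated through their Entrez identifiers. Intensities were background corrected, quantile normalised and put on a log2 scale with limma's neqc (R 4.3.3, limma 3.58.1, offset 16), which used the deposited detection p-values in place of control beads. Probes with a detection p under 0.05 on at least 3 of 12 arrays were kept (22359, of which 18852 have 1 symbol), and of several kept probes of a gene the one with the highest mean was used, giving 11933 genes.

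A 4-group linear model was fitted over 12 arrays (lmFit and eBayes, 8 residual and 3.95 prior degrees of freedom) for 6 comparisons, with Benjamini-Hochberg adjustment over all 11933 genes at 0.05. Bead arrays give no read depth; 3 arrays a group limit the precision. The fit was tested on simulated data. Alternatives were the background offset, the scaling, the detection filter, the choice of probe, array weights, covariates, the replicate block and leaving out each array. All 42 members may be named; array values are given for Top2a, Pcna, Mcm2 and Ccnd1 and for the 2 members of each set with the largest difference in DSS against control, and further members are given as examples of their role, chosen after their values were seen. Pathway genes are named where they passed, with Cdkn1a and Myc in any case. The members and gene lists were chosen with earlier results of these data known. Same-numbered arrays did not pair throughout: of 18 same-number pairs, 3 had deviations correlated above 0.1 (-0.32 to 0.40), and of 36 other pairs 8 (-0.42 to 0.45). Those 3 were the pairs of replicate 3 between treated groups. They were DSS with DAPP before DSS (0.40), DSS with DAPP during DSS (0.35) and the DAPP groups with each other (0.11). What these replicates share was not tested. Promoter windows came from RefSeq tables of GRCm38.p6.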

Additional observations from a re-analysis of the deposited data

Results flagged for a closer look

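Member probes that the detection rule left out were looked at for signal in treated mice. A detection p under 0.05 outside control, with none on a control array, was found for an unkept probe of Rrm1 on 2 arrays and of Ube2c on 2 arrays, and for an unkept probe of Top2a, of Ccna2 and of Tyms on 1 array each. Their highest log2 levels on treated arrays were 5.32, 5.63, 5.30, 5.22 and 5.33 in that order, near the lowest detected signal of an array (5.18 to 5.70). The Tyms probe was higher, at 5.50, on control replicate 2, where it was not detected. Each of the genes Rrm1, Top2a and Tyms has a brighter kept probe, and these detections were not tested between groups.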

How the results depend on the processing

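The count of cell cycle genes past the threshold was 0 in every comparison under most settings, with these exceptions. It was 1 in DSS against control with every probe tested singly (the dim Tyms probe, which the detection filter kept through the control arrays alone, so that it had to differ). With array weights it was 1 in DAPP before DSS against control (Nusap1, -1.46) and 1 in DAPP during DSS against control (Mcm7, 1.12). With the epithelium list as a covariate it was 1 in DAPP before DSS against control (Nusap1). Without 1 array in turn it ranged from 0 to 3 in DAPP before DSS against control and was 0 in the other comparisons. The count over all genes moved more. For DSS against control it was 487 with detection p under 0.01 on all 12 arrays, 1479 with array weights and 1608 with the epithelium covariate, and 429 to 1523 without 1 array. For DAPP before DSS against control it was 821 with the strict detection rule, 746 with the 2 groups alone, 711 with the pancreas covariate, 2013 at an adjusted p under 0.1, and 776 to 1543 without 1 array. For DAPP during DSS against control it was 1710 with equal medians, 587 with the strict detection rule, 3392 with array weights, 2352 with the 2 groups alone, 1817 with the epithelium covariate, 1381 at an adjusted p under 0.1, and 443 to 1722 without 1 array. Between the DAPP groups it was 0 to 1 without 1 array. The strict rule tests 7593 genes; for the other settings the cause was not tested. With the replicate block 0 members passed in any comparison and the count over all genes was 812 in DSS against control and 1378 in DAPP before DSS against control; it changed no call of a member, and ended that of Cdkn1a in DAPP before DSS against control (limma adjusted p = 0.0514). Over 10 followed members and 25 settings, 1476 of 1482 values kept their call, 6 gained one and 75 changed sign with neither value past the threshold. The larger spread outside control held in each of 5 other scalings and probe choices, the SD being lowest in control for 30 to 32 of 34 members. Members near background (Mcm3, Ccne1, Ccne2 and Kif11 on some arrays) have compressed differences.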
